A study of Mus musculus with 30 samples.

Results

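The 10 genes described here encode carriers that move bile acids and organic anions across the membranes of the hepatocyte, and they were taken by symbol from the 55450 genes counted in mouse liver. Of these, 4 are uptake carriers of the blood-facing (basolateral) membrane, 3 are pumps of the canalicular membrane, which faces the bile, and 3 are exporters of the basolateral membrane. The libraries came from livers of male mice in 3 experiments, and each experiment set 5 mice with Cebpa fl/fl and no Cre against 5 knockout mice that carried Cre, which makes 30 libraries in 6 groups of 5. CEBPA is a leucine-zipper transcription factor of hepatocytes, and all 30 mice carried the floxed Cebpa allele, were backcrossed to C57BL/6N and ate HFCFD, a diet rich in fat, cholesterol and fructose. In HFCFD2W the knockout mice were Cebpa ΔHep, in which Cre is driven by the albumin promoter from before birth, and the diet lasted 2 weeks. In HFCFD8W+T10D and HFCFD12W+T10W they were Cebpa ΔHep,ERT2, in which Alb-ERT2-cre is switched on by tamoxifen. Tamoxifen was given for 10 days in HFCFD8W+T10D, with 8 weeks of diet in the label, and for the last 10 of 22 weeks of diet in HFCFD12W+T10W. The labels give the same treatment to the Cebpa fl/fl mice of each experiment, the age of the mice is not given in the sources used here, and replicates are separate mice. Because liver tissue was sequenced whole, fewer hepatocytes and less RNA per hepatocyte cannot be told apart in any value below.

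Bile acids circulate between liver and gut. Hepatocytes take them back from portal blood through the sodium-dependent carrier Slc10a1 (NTCP) and the sodium-independent organic anion carriers of the Slco family, and they secrete them into bile through Abcb11 (the bile salt export pump), beside Abcb4, which moves phosphatidylcholine into the canalicular membrane, and Abcc2, which exports bilirubin and other conjugates. When bile flow fails, the basolateral exporters Abcc3, Abcc4 and the heteromer of Slc51a and Slc51b can return bile acids and conjugates to the blood, and falling uptake with rising Abcc4 is a well known response of the cholestatic liver.

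The promoters of 4 of these genes are shown because they differ in whether they hold letters that a C/EBP factor can bind, and each belongs to a gene whose values are given below. RefSeq (GRCm38.p6) gave windows of 250 bases before to 50 bases after the start for 9 of the 10 genes. They were searched on both strands for TTGCNNAA, a core of the C/EBP site, and for TGACNNNGC, the antioxidant response element. Matches of the 2 patterns did not overlap in these windows. Capitals mark the matches in the 250 bases before each start, read 5′ to 3′ on the strand of the gene. Slc10a1 is shown upstream of the start of its shorter transcript at chr12:80968080-80968329 (minus strand), Abcc4 at chr14:118706220-118706469 (minus strand), Slco1b2 at chr6:141629268-141629517 (plus strand) and Abcb11 at chr2:69342617-69342866 (minus strand).
Slc10a1: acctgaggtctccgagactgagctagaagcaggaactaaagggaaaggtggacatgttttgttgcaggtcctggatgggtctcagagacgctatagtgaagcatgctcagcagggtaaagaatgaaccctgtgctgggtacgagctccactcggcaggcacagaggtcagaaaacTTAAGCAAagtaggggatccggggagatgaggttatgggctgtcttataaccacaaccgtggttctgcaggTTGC
Abcc4: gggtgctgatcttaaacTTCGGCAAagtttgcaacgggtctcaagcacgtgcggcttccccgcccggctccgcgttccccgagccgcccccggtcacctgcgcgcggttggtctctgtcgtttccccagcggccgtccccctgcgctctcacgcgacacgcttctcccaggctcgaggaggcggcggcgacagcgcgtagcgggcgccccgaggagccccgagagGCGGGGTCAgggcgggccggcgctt
Slco1b2: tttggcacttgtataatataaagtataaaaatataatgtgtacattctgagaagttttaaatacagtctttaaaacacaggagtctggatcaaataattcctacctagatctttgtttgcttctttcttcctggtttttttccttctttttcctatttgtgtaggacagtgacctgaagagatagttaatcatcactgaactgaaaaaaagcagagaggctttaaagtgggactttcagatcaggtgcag
Abcb11: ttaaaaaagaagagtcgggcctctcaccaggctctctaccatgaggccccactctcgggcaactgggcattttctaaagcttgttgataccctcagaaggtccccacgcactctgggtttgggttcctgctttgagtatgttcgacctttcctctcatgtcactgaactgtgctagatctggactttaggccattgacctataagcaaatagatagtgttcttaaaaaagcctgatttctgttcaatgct
The C/EBP pattern was found in Slc10a1 with its first base 75 bases before the start and again 4 bases before it, a match that runs past the start so that only its first letters are in capitals. In Abcc4 it began 233 bases before the start, and the antioxidant response element began 25 bases before it. RefSeq gave a further window for each of these genes: that of Slc10a1 at the start of its longer transcript (chr12:80968706-80968955) held neither pattern, and that of Abcc4 (chr14:118676932-118677181) held an antioxidant response element 23 bases before its start and no C/EBP pattern. Abcc2 held an antioxidant response element 98 bases before its start, and the windows of Slco1a1, Slco1a4, Slco1b2, Abcb11, Abcb4 and Slc51b held neither pattern. Over 32851 promoter windows of the mouse, 10.8% held the C/EBP pattern and 12.4% the antioxidant response element, and these matches are letters in a window, not measured binding.

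Library totals ran from 7996123 to 10257347 counts. Levels are given per mouse, in the order of the replicate numbers, as CPM, which are counts scaled to a common library total with trimmed-mean (TMM) factors, and genes are compared with each other only by TPM, which also accounts for transcript length. Each experiment had its own fit and quasi-likelihood test in edgeR, and differences are log2 fold changes of knockout over Cebpa fl/fl with their standard error (SE). Adjusted p is by Benjamini-Hochberg over every gene tested, and a difference passed at an adjusted p under 0.05. Cebpa itself fell from 177 ± 17.7 to 4.74 ± 0.903 CPM in HFCFD2W (mean ± SD, n = 5 in each group), from 144 ± 13.4 to 17.2 ± 5.93 in HFCFD8W+T10D and from 114 ± 23.04 to 21.3 ± 1.97 in HFCFD12W+T10W. The hepatocyte markers were present in every library, with Alb as the most abundant of them. Of all genes tested, 8.09% were lower and 8.6% higher in knockout livers of HFCFD2W, while for HFCFD8W+T10D the shares were 6.85% and 10.3%, and for HFCFD12W+T10W 23.8% and 27.4%. With a fold over 2 as well, the shares in both directions together were 3.07%, 6.1% and 17.7%.

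Of the 4 uptake carriers, 3 passed as lower in Cebpa ΔHep livers of HFCFD2W, then 1 at HFCFD8W+T10D and 3 at HFCFD12W+T10W, and 0 passed as higher. Their median log2 fold change was -0.51, -1.03 and -2.07 in the 3 experiments, against a median of 0.01 over all genes tested in each. Slco1b2, the organic anion carrier for bile acids and bilirubin, was the uptake gene that passed in all 3. Slc10a1 passed in HFCFD2W and HFCFD12W+T10W, and Slco1a1, an organic anion carrier that is more abundant in male than in female mouse liver, passed with them but less securely.

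Slc10a1 (ENSMUSG00000021135.8, chromosome 12, 80953183 to 80968705, minus strand, mm10) was read in HFCFD2W at 653, 660.2, 647, 700.4 and 712 CPM in Cebpa fl/fl mice and at 341, 326, 428, 400.2 and 379 CPM in Cebpa ΔHep mice, which carry replicate numbers 2 to 6. All 5 knockout livers lay below all 5 controls, and the log2 fold change was -0.85 (SE 0.08, adjusted p = 3.3e-05), which left 55.6% of the control level. In HFCFD12W+T10W the Cebpa fl/fl mice held 414, 389, 350.2, 408 and 293 CPM and the Cebpa ΔHep,ERT2 mice 49.1, 46.1, 96.6, 58.6 and 44.2 CPM. The groups did not overlap, the knockout livers were 6.10-fold lower, and the log2 fold change was -2.61 (SE 0.21, adjusted p = 9.9e-07).

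In HFCFD8W+T10D, with 10 days of tamoxifen, Slc10a1 stood at 442, 432, 433, 389 and 327 CPM in Cebpa fl/fl mice and at 309.6, 106, 255, 353 and 262 CPM in Cebpa ΔHep,ERT2 mice. Knockout replicate 2 was far below the others and knockout replicate 4 lay within the control range, so that the groups overlapped, and the log2 fold change of -0.64 (SE 0.24, adjusted p = 0.087) did not pass. Without knockout replicate 4 it was -0.79 with an adjusted p of 0.040, and in the joint fit of all libraries its adjusted p was 0.018 and that of Abcb4 0.0020 (0.029 for Abcb4 in DESeq2). The same library decided other calls of HFCFD8W+T10D: leaving it out raised the number of transporters that passed from 2 to 6, adding Slc10a1, Slco1a1 (adjusted p = 0.016), Abcb4 (adjusted p = 0.040) and Abcc3 (adjusted p = 0.012).

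Slco1b2 (ENSMUSG00000030236.10, chromosome 6, 141629518 to 141686646, plus strand) was the most abundant uptake mRNA per length in each control group. In HFCFD2W it was read at 1435, 1440.0, 1533, 1571 and 1469 CPM in controls and at 945, 795, 1058, 888 and 889 CPM in knockout mice. In HFCFD8W+T10D the values were 1312, 1567, 1230.3, 1461 and 1466 CPM in controls and 581, 354, 530.0, 595 and 486 CPM in knockout mice. In each of these experiments every knockout liver lay under every control. The log2 fold change was -0.70 (SE 0.08, adjusted p = 0.00012) in HFCFD2W and -1.45 (SE 0.15, adjusted p = 7.4e-05) in HFCFD8W+T10D. Controls of HFCFD12W+T10W held 1556, 1682, 1571, 1579 and 1354 CPM and the knockout mice 483, 498, 597, 507 and 506 CPM. The knockout livers were again all lower, by 2.90-fold, with a log2 fold change of -1.54 (SE 0.09, adjusted p = 1.1e-07). These 3 calls held when each mouse was left out in turn and under each of the 7 other processing choices tried, as did those of Slc10a1 in HFCFD2W and HFCFD12W+T10W.

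**Figure D1:**
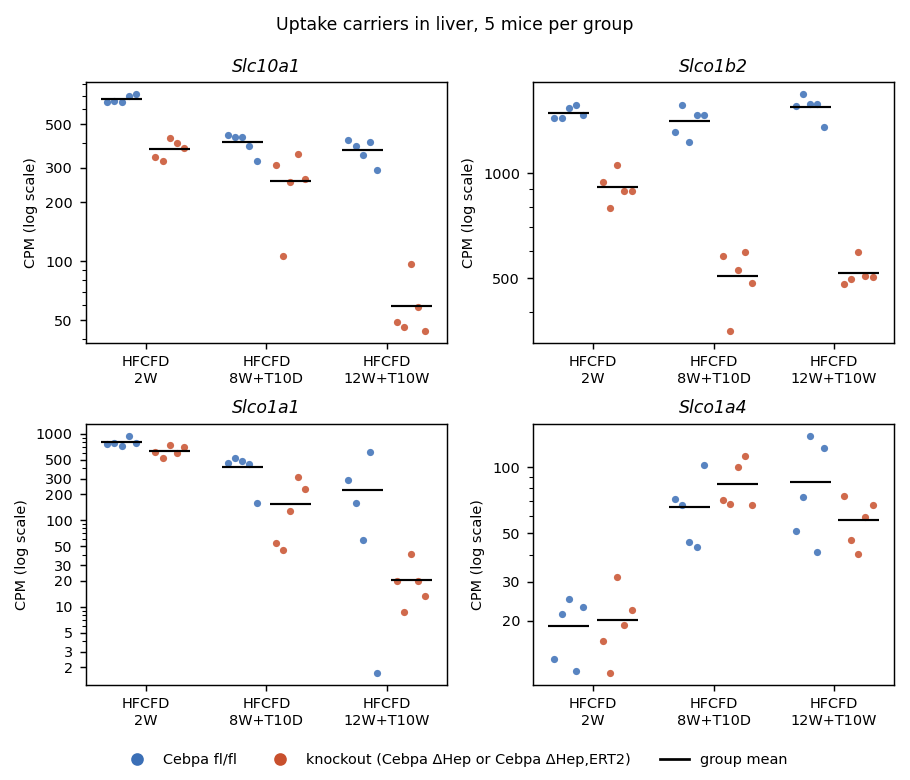
CPM of the 4 uptake genes in each mouse, on log axes, for Cebpa fl/fl and knockout mice of the 3 experiments, with 1 point per mouse and a bar at the group mean. Slco1b2 is lower in all 15 knockout livers than in all controls of the same experiment, and Slco1a1 spreads from 1.72 to 605 CPM among the controls of HFCFD12W+T10W.

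Slco1a1 (ENSMUSG00000041698.11, chromosome 6, 141907282 to 141946962, minus strand) varied little between mice of HFCFD2W and widely between those on the longer diets. In HFCFD2W it was read at 762, 779, 717, 936 and 773 CPM in controls and at 618, 524, 740.1, 589 and 697 CPM in knockout mice. The groups overlapped through knockout replicate 4, and the log2 fold change was -0.32 (SE 0.10, adjusted p = 0.045). That call was lost when any of 8 of the 10 mice was left out (all but control replicate 3 and knockout replicate 4), with adjusted p from 0.051 to 0.11, and under 4 of the 7 other processing choices.

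In HFCFD12W+T10W the Cebpa fl/fl mice held 295, 157, 59.3, 605 and 1.72 CPM of Slco1a1, and the Cebpa ΔHep,ERT2 mice 19.8, 8.78, 40.1, 19.98 and 13.4 CPM. Control replicate 5 had only 17 counts and lay below all 5 knockout livers, while the other controls lay above all of them. The log2 fold change was -3.40 (SE 0.92, adjusted p = 0.0078), and leaving out any 1 mouse kept the call. It did not pass with the replicate number as a block (-2.58, adjusted p = 0.065) or in limma on log2(TPM + 1) (-1.81, adjusted p = 0.15) and log2(TPM + 0.1) (-1.71, adjusted p = 0.25), which are 3 of the 7 other processing choices. In HFCFD8W+T10D the controls held 454, 517, 479, 440.9 and 158 CPM and the knockout mice 54.4, 45.1, 129, 311 and 226 CPM. Control replicate 5 was the lowest control and lay within the knockout range, and the difference of -1.41 (SE 0.48, adjusted p = 0.061) did not pass, but it did without that mouse (adjusted p = 0.038) and under 3 of the 7 other processing choices (no low-count filter and limma on both TPM scales, with adjusted p from 0.030 to 0.036).

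Slco1a4 (ENSMUSG00000030237.14, chromosome 6, 141805440 to 141856199, minus strand), a member of the same gene cluster and a carrier of organic anions and cardiac glycosides, passed in no genotype comparison. It was read in HFCFD2W at 13.4, 21.5, 25.2, 11.7 and 22.99 CPM in controls and at 16.2, 11.6, 31.6, 19.04 and 22.3 CPM in knockout mice, with a log2 fold change of 0.07 (SE 0.26, adjusted p = 0.88). In HFCFD8W+T10D the difference was 0.35 (SE 0.23, adjusted p = 0.33). In HFCFD12W+T10W the controls held 51.4, 72.96, 139, 41.2 and 122 CPM and the knockout mice 74.2, 46.4, 40.3, 59.1 and 67.4 CPM. The groups overlapped in each experiment, and the difference in HFCFD12W+T10W was -0.53 (SE 0.30, adjusted p = 0.16), with an adjusted p of 0.043 when control replicate 4 was left out. Stretches of 50 bases found in another gene made up 1.64% of Slco1a1 transcripts and 1.61% of those of Slco1a4, and both had counts that are not whole numbers in 20 of 30 libraries, so that reads shared inside the cluster were split between genes before deposit.

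Among the 5 controls of HFCFD12W+T10W, the 2 cluster members ran in opposite order over most mice: replicate 4, highest in Slco1a1, was lowest in Slco1a4, and replicates 3 and 5, lowest in Slco1a1, were highest in Slco1a4. Over all 30 libraries, after subtraction of each experiment's mean, the correlation of their log2 CPM was -0.31, a description over libraries that share genotype and experiment.

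**Figure D2:**
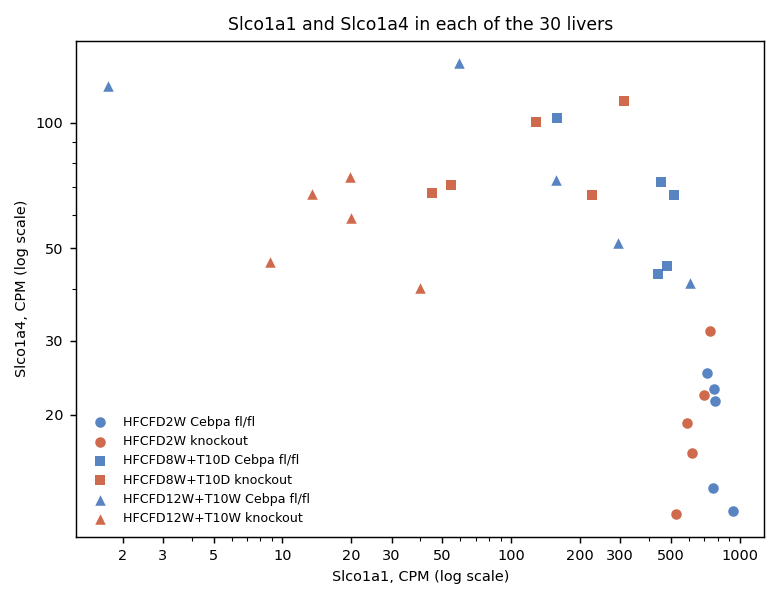
CPM of Slco1a4 against CPM of Slco1a1 in each of the 30 mice, both on log axes, with 1 point per mouse, colour for the genotype and shape for the experiment. Control replicate 5 of HFCFD12W+T10W, at 1.72 CPM of Slco1a1, stands apart from the other controls of that experiment.

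Added up per length, the 4 uptake mRNAs came to 1084 ± 73.9 TPM in Cebpa fl/fl and 742 ± 62.9 TPM in Cebpa ΔHep livers of HFCFD2W. In HFCFD8W+T10D the sums were 954 ± 59.7 and 521 ± 93.6 TPM, and in HFCFD12W+T10W 1029 ± 119 and 382 ± 37.02 TPM. The ranges of the 2 genotypes did not overlap in any of the 3 experiments, the closest being 1020.0 to 1200.3 against 645 to 818 TPM in HFCFD2W. The composition did not move the same way in each experiment. Slc10a1 made up 29.5% ± 1.36 (SD, n = 5) of the uptake sum in controls of HFCFD12W+T10W and 16.5% ± 3.93 in knockout livers, whereas Slco1b2 made up 58.6% ± 4.61 and 69.7% ± 2.63. In HFCFD2W, where both carriers were lower, their shares were nearer to each other, 38.9% ± 1.02 and 34.2% ± 1.78 for Slc10a1 and 40.7% ± 1.18 and 39.6% ± 1.67 for Slco1b2. In HFCFD8W+T10D the shares went against those of HFCFD12W+T10W, from 31.4% ± 2.77 to 40.5% ± 5.78 for Slc10a1 and from 51.8% ± 5.17 to 40.2% ± 6.22 for Slco1b2. Slco1a4 made up 0.736% ± 0.324 of the sum in controls and 1.14% ± 0.368 in knockout livers of HFCFD2W. For HFCFD8W+T10D these shares were 3.31% ± 1.57 and 9.39% ± 2.59, and for HFCFD12W+T10W 4.85% ± 2.87 and 11.3% ± 3.35. The shares were not tested. The sums carry the shift of TPM against TMM that is given below with the canalicular pumps.

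**Figure D3:**
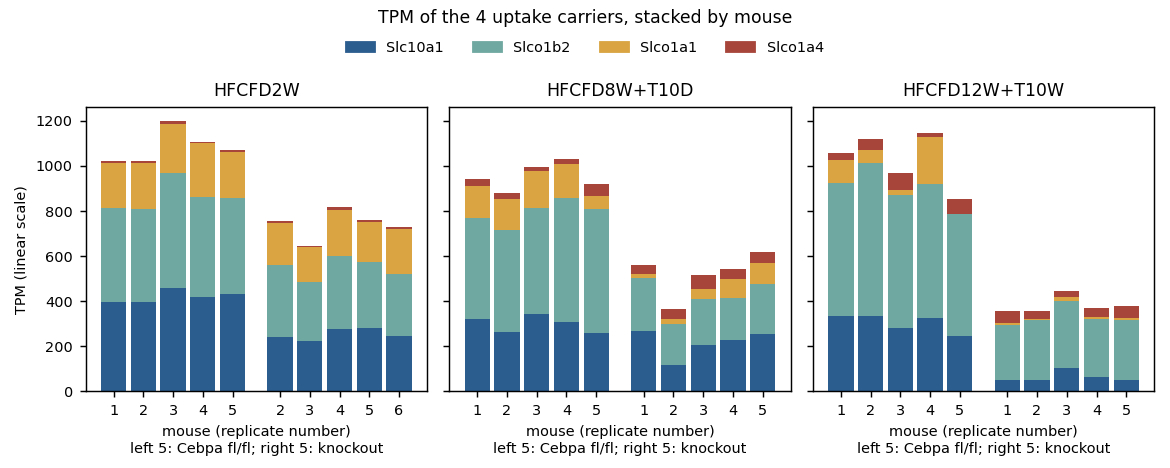
TPM of Slc10a1, Slco1b2, Slco1a1 and Slco1a4 stacked for each mouse of the 3 experiments, on a linear axis from 0, with the 5 Cebpa fl/fl mice on the left and the 5 knockout mice on the right of each panel. Every knockout stack is shorter than every control stack of its experiment, with ranges of 854 to 1148 and 355 to 446 TPM in HFCFD12W+T10W.

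Of the 3 canalicular pumps, 2 passed as lower in HFCFD2W, by 1.28-fold and 1.18-fold, and 0 passed in either direction in the other experiments. Abcb11 (ENSMUSG00000027048.15, chromosome 2, 69238282 to 69342616, minus strand), which exports bile salts, was read in HFCFD2W at 549, 489.6, 450.2, 496 and 573 CPM in controls and at 458, 413, 409, 371 and 348 CPM in knockout mice. The highest knockout value lay just above the lowest control, and the log2 fold change was -0.36 (SE 0.09, adjusted p = 0.020). Abcb4 (ENSMUSG00000042476.12, chromosome 5, 8893717 to 8959231, plus strand) stood at 261, 254, 246, 265 and 270.5 CPM in controls and at 239, 215, 227, 208 and 207 CPM in knockout mice, without overlap, at a log2 fold change of -0.24 (SE 0.06, adjusted p = 0.023). Both calls were lost without control replicate 5 (adjusted p = 0.054 for Abcb11 and 0.060 for Abcb4) and without knockout replicate 6 (adjusted p = 0.051 and 0.060), and with Slco1a1 they made the number of transporters that passed in HFCFD2W run from 3 to 6 when single mice were left out. Abcb4 shares 2.83% of its 50-base stretches with other genes, chiefly Abcb1a. The Abcb11 call was also lost under 4 and the Abcb4 call under 5 of the 7 other processing choices.

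Abcb11 did not pass in the tamoxifen experiments, where the log2 fold change was 0.09 (SE 0.16, adjusted p = 0.74) in HFCFD8W+T10D and -0.05 (SE 0.12, adjusted p = 0.76) in HFCFD12W+T10W. Its values in HFCFD12W+T10W were 237, 316, 209, 206 and 257 CPM in controls and 245, 208, 229, 268 and 198 CPM in knockout mice, ranges that lay over each other. For Abcb4 the differences were -0.37 (SE 0.13, adjusted p = 0.069) and -0.01 (SE 0.07, adjusted p = 0.88), with controls of HFCFD12W+T10W at 258, 265, 263, 243 and 263 CPM and knockout mice at 253, 243, 257, 268 and 221 CPM. Abcc2 (ENSMUSG00000025194.5, chromosome 19, 43782192 to 43840740, plus strand) passed in no genotype comparison, at 0.21 (SE 0.08, adjusted p = 0.071) in HFCFD2W, 0.17 (SE 0.14, adjusted p = 0.43) in HFCFD8W+T10D and 0.10 (SE 0.12, adjusted p = 0.52) in HFCFD12W+T10W, although in HFCFD2W its adjusted p was 0.026 without knockout replicate 3, and it passed under 3 of the 7 other processing choices (DESeq2 and limma on both TPM scales, with adjusted p from 0.022 to 0.034). In that experiment the controls held 603, 638, 654, 638 and 659.9 CPM of Abcc2 and the knockout mice 734, 639.8, 751, 779 and 790.1 CPM, with knockout replicate 3 inside the control range and the other 4 above it.

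These near-level values of the canalicular pumps in HFCFD12W+T10W depended on the scaling. On the TPM scale of the deposited values all 3 were higher in knockout livers, Abcb11 by 0.30 (adjusted p = 0.036), Abcb4 by 0.33 (adjusted p = 0.0011) and Abcc2 by 0.34 (adjusted p = 0.012) in limma on log2(TPM + 1). On that scale the median of all genes tested was itself 0.32, a shift of 0.30 from TMM, so that relative to the typical gene the pumps moved by close to 0. The genes that passed in HFCFD12W+T10W split into 3411 up and 2960 down with TMM, and into 6301 and 872 on the TPM scale. The split was 952 and 895 against 1177 and 374 in HFCFD2W, where the median shifted by 0.09, and 1231 and 821 against 1173 and 274 in HFCFD8W+T10D, where it shifted by 0.16. The calls of Slc10a1, Slco1b2, Abcc3 and Abcc4 that passed with TMM kept their direction and passed on both scales.

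Of the basolateral exporters, Abcc4 passed as higher in all 3 experiments, and Abcc3 passed as lower in HFCFD12W+T10W. Abcc4 (ENSMUSG00000032849.14, chromosome 14, 118482692 to 118706219, minus strand), which exports bile acids together with glutathione, was low in HFCFD2W, at 1.93, 0.891, 1.40, 1.52 and 1.28 CPM in controls and 2.01, 2.58, 5.54, 5.62 and 4.83 CPM in knockout mice. These are 6 to 13 counts per control library and 17 to 44 counts per knockout library. All 5 knockout livers were above all controls, with a log2 fold change of 1.53 (SE 0.33, adjusted p = 0.0073). In HFCFD8W+T10D the controls held 12.2, 8.67, 3.82, 4.27 and 6.98 CPM and the knockout mice 32.4, 60.9, 52.2, 44.01 and 26.6 CPM. The groups were apart, by 6.11-fold at a log2 fold change of 2.61 (SE 0.31, adjusted p = 0.00016). In HFCFD12W+T10W the values were 16.3, 11.9, 27.3, 10.4 and 25.2 CPM in controls and 86.9, 64.8, 42.99, 53.9 and 52.7 CPM in knockout mice. Again no knockout liver reached down to the controls, and the log2 fold change was 1.76 (SE 0.26, adjusted p = 0.00013). Each of these calls held without any 1 mouse and under each of the 7 other processing choices.

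Abcc3 (ENSMUSG00000020865.16, chromosome 11, 94343295 to 94392997, minus strand), which exports glucuronides and some bile acids, moved the other way. The controls of HFCFD12W+T10W held 610.2, 539, 689, 452 and 545 CPM and the knockout mice 205, 190.4, 204, 250.5 and 162 CPM. The highest knockout value lay far below the lowest control, the level left was 36.8% and the log2 fold change was -1.44 (SE 0.13, adjusted p = 2.6e-06). It did not pass in HFCFD2W at -0.41 (SE 0.26, adjusted p = 0.31), where knockout replicates 2 and 3 held 111 and 102 CPM and the other 3 lay within the control range of 198 to 331 CPM. It did not pass in HFCFD8W+T10D either, at -0.53 (SE 0.21, adjusted p = 0.10).

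Slc51b (ENSMUSG00000053862.6, chromosome 9, 65412714 to 65422955, minus strand), a subunit of the organic solute exporter, was near the floor everywhere and was not tested. Its counts were 3, 0, 1, 4 and 1 in controls and 0, 3, 2, 0 and 1 in knockout mice of HFCFD2W. In HFCFD8W+T10D they were 2, 1, 2, 1 and 1 and 5, 3, 7, 0 and 2, and in HFCFD12W+T10W 0, 1, 1, 0 and 2 and 0, 1, 2, 0 and 3. Only knockout replicates 1 and 3 of HFCFD8W+T10D and control replicate 4 of HFCFD2W exceeded 3 counts. Slc51a, the other subunit, had a mean of 0 CPM in 5 of the 6 groups.

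**Figure D4:**
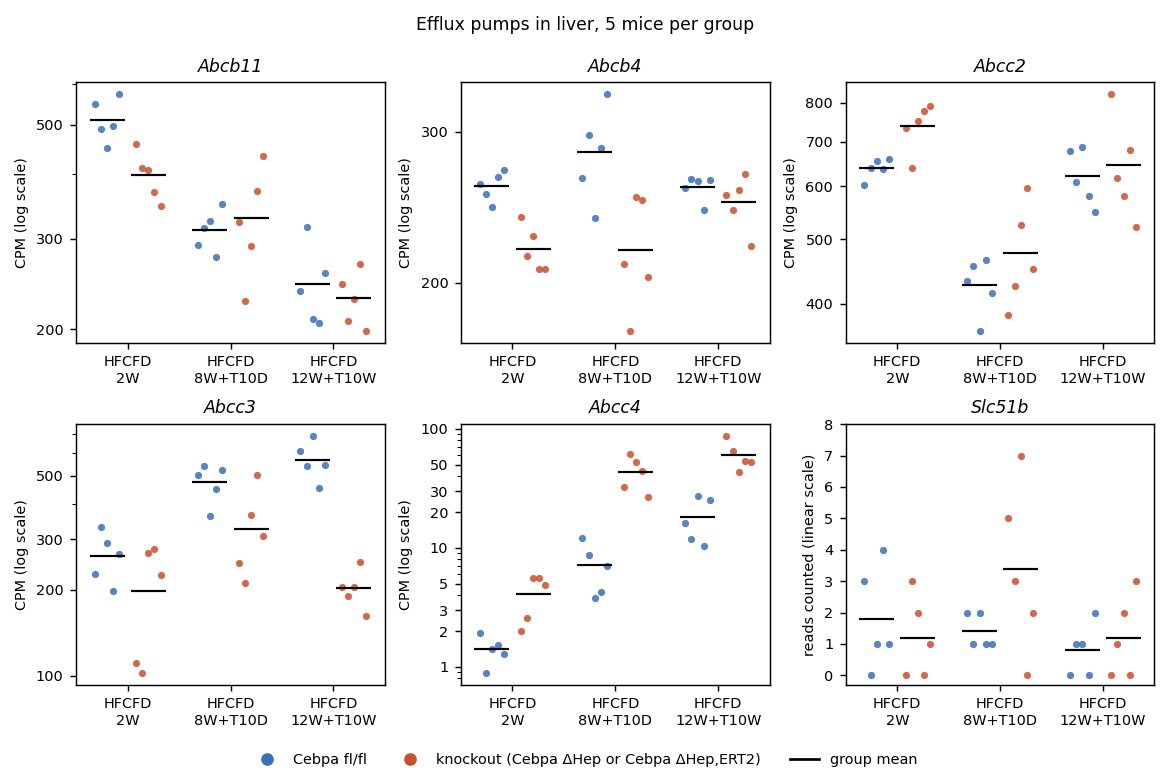
CPM of the canalicular pumps Abcb11, Abcb4 and Abcc2 and of the basolateral exporters Abcc3 and Abcc4 in each mouse, on log axes, with 1 point per mouse and a bar at the group mean, and counts of Slc51b on a linear axis. Abcc4 is higher in every knockout liver than in every control of the same experiment, while Abcb11 ranges overlap in all 3.

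Taking the efflux members by length, the canalicular sum was 309 ± 11.2 TPM in controls and 305 ± 33.7 TPM in knockout livers of HFCFD2W, 263 ± 32.6 and 296 ± 46.7 TPM in HFCFD8W+T10D, and 303 ± 21.4 and 380.4 ± 31.9 TPM in HFCFD12W+T10W, where the TPM shift given above applies. The basolateral sum was carried by Abcc3 in all 6 groups. It was 73.7 ± 17.5 and 59.9 ± 21.3 TPM in HFCFD2W, 159 ± 18 and 134 ± 20.8 TPM in HFCFD8W+T10D, and 208 ± 32.9 and 115 ± 11.99 TPM in HFCFD12W+T10W. Abcc4 rose from 3.99 to 17.9 TPM in the last experiment, so that per length it stayed below Abcc3 at 97.2 TPM even in knockout livers. With TMM the rise of Abcc4 there was 3.39-fold. The TPM shifts given above apply to the basolateral values as well, and to the sums of all 3 experiments.

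**Figure D5:**
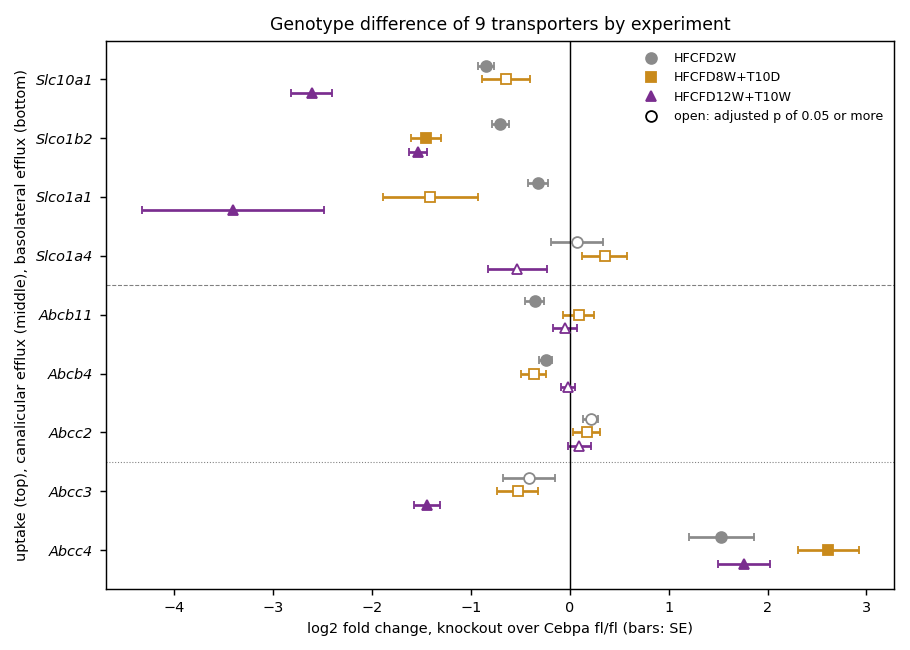
Log2 fold change of knockout over Cebpa fl/fl livers for the 9 tested genes in the 3 experiments, with error bars for 1 SE and filled points for an adjusted p under 0.05. Uptake genes lie at or below 0 apart from Slco1a4, the canalicular pumps lie within 0.37 of 0, and Abcc4 lies above 1 in each experiment.

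In all, 1 transporter passed as higher and 5 as lower in HFCFD2W, 1 and 1 at HFCFD8W+T10D, then 1 and 4 at HFCFD12W+T10W, of 9 tested each time. The shares of all genes tested were 8.6% higher and 8.09% lower, then 10.3% and 6.85%, then 27.4% and 23.8%. With a fold over 2 as well, 1, 2 and 5 passed, against 3.07%, 6.1% and 17.7% of all genes tested.

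Whether a knockout effect differed between experiments was tested as an interaction in 1 fit of the 30 libraries, in which the 6 groups share 1 estimate of spread. HFCFD2W differs from the tamoxifen experiments in Cre line, tamoxifen, length of diet and length of gene loss together. The tamoxifen experiments share a Cre line and differ in length of tamoxifen, of diet and of gene loss together. Knockout livers of HFCFD2W also kept less Cebpa mRNA, 2.67% of control, against 12.1% with 10 days of tamoxifen and 19.2% with 10 weeks. In the same fit these longer experiments differed from HFCFD2W in the Cebpa effect by 2.17 and 2.80 (adjusted p = 9.3e-07 and 2.7e-08). Between the tamoxifen experiments the Cebpa effect differed by 0.63 (adjusted p = 0.066), which did not pass. In neither case can these factors be told apart. Of the 9 transporters, 1 differed between HFCFD8W+T10D and HFCFD2W (11.2% of all genes), 1 between HFCFD12W+T10W and HFCFD8W+T10D (10.5%), and 4 between HFCFD12W+T10W and HFCFD2W (30.7%). The 3 contrasts share groups and are not independent of one another.

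The Slco1b2 effect was larger in HFCFD8W+T10D than in HFCFD2W, by a log2 difference of -0.76 (SE 0.15, adjusted p = 0.0016), and larger in HFCFD12W+T10W than in HFCFD2W at -0.88 (SE 0.16, adjusted p = 0.00012), while between the tamoxifen experiments it differed by -0.11 (SE 0.15, adjusted p = 0.71). The effect on Slc10a1 was the only one of the 9 to differ between the tamoxifen experiments, by -2.0 (SE 0.29, adjusted p = 0.00015), and it was larger in HFCFD12W+T10W than in HFCFD2W at -1.80 (SE 0.29, adjusted p = 4.6e-05), against 0.20 (SE 0.29, adjusted p = 0.73) between HFCFD8W+T10D and HFCFD2W. Slco1a1 differed between HFCFD12W+T10W and HFCFD2W by -3.13 (SE 0.93, adjusted p = 0.011) and Abcc3 by -1.07 (SE 0.33, adjusted p = 0.014). For Abcc4 no difference of effects passed, at 1.07 (SE 0.60, adjusted p = 0.27), -0.88 (SE 0.40, adjusted p = 0.17) and 0.20 (SE 0.60, adjusted p = 0.84) in the order HFCFD8W+T10D over HFCFD2W, HFCFD12W+T10W over HFCFD8W+T10D, and HFCFD12W+T10W over HFCFD2W. Between the tamoxifen experiments the count rose from 1 to 2 when 1 of 6 mice was left out. These were knockout replicate 2 of HFCFD8W+T10D and knockout replicates 2 and 3 of HFCFD2W for Abcc3 (adjusted p = 0.026, 0.045 and 0.038), control replicate 3 and knockout replicate 3 of HFCFD8W+T10D for Abcb4 (adjusted p = 0.039 and 0.036), and control replicate 5 of HFCFD12W+T10W for Slco1a1 (adjusted p = 0.033). Without knockout replicate 2 of HFCFD8W+T10D, Abcb11 also differed between HFCFD8W+T10D and HFCFD2W (adjusted p = 0.037). Upper quartile scaling turned the balance of all genes that differed, from 577 up and 880 down to 771 and 695, from 644 and 712 to 742 and 374, and from 1736 and 2249 to 2348 and 1464 in these 3 contrasts. Each difference of Slc10a1, Slco1b2, Slco1a1 and Abcc3 that passed kept its direction under it.

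The levels in Cebpa fl/fl livers also differed between the experiments, in which length of diet, tamoxifen and experiment cannot be told apart. In the same fit 6 of 9 transporters differed between HFCFD8W+T10D and HFCFD2W (43.6% of all genes), 2 between HFCFD12W+T10W and HFCFD8W+T10D (11.4%), and 6 between HFCFD12W+T10W and HFCFD2W (39.1%). Abcc4 rose most, from 1.40 ± 0.377 CPM in HFCFD2W to 7.18 ± 3.42 in HFCFD8W+T10D and 18.2 ± 7.69 in HFCFD12W+T10W, with log2 differences of 2.33 (SE 0.44, adjusted p = 0.00010) and then 1.36 (SE 0.31, adjusted p = 0.0038). Slco1a4 was higher in HFCFD8W+T10D than in HFCFD2W by 1.80 (SE 0.31, adjusted p = 4.1e-05) and Abcc3 by 0.86 (SE 0.23, adjusted p = 0.0039). Slc10a1 and Abcb11 were lower there, at -0.74 (SE 0.21, adjusted p = 0.0046) and -0.71 (SE 0.13, adjusted p = 9.6e-05).

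Markers of other cells differed between these control livers too. The lymphocyte list includes Ptprc, which is not limited to lymphocytes. Of all 12964 genes tested, 2872 were higher and 2782 lower in controls of HFCFD8W+T10D than in those of HFCFD2W. For HFCFD12W+T10W over HFCFD2W these numbers were 2563 and 2512. Against HFCFD2W, controls of HFCFD8W+T10D had 7 of 7 macrophage markers higher (median log2 difference 1.85), 4 of 7 stellate cell, 4 of 6 endothelial, 2 of 4 tested lymphocyte and 1 of 7 cholangiocyte markers higher, and 5 of 9 hepatocyte markers lower (median -0.32). Controls of HFCFD12W+T10W had 7 of 7 macrophage markers (median 1.24), 3 of 6 endothelial and 2 of 4 tested lymphocyte markers higher, and 6 of 9 hepatocyte markers lower (median -0.35), with 1 lymphocyte and 1 cholangiocyte marker lower and 1 stellate cell marker in each direction. Their part in the transporter differences was not tested.

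Between HFCFD12W+T10W and HFCFD2W the control livers showed the same directions, with Slco1a4 higher by 2.17 (SE 0.31, adjusted p = 6.1e-06), Abcc3 higher by 1.11 (SE 0.23, adjusted p = 0.00048), Slc10a1 lower by a log2 difference of -0.86 (SE 0.21, adjusted p = 0.0015) and Abcb11 lower at -1.06 (SE 0.14, adjusted p = 9.9e-07). Slco1a1 was lower as well at -1.83 (SE 0.65, adjusted p = 0.027), but not without control replicate 2 or 3 of HFCFD12W+T10W (adjusted p = 0.061 and 0.075). Without control replicate 2, Abcb11 was lower in HFCFD12W+T10W than in HFCFD8W+T10D (-0.45, adjusted p = 0.032), where 3 transporters then differed in place of 2. Abcc2 was lower in HFCFD8W+T10D than in HFCFD2W, at -0.58 (SE 0.11, adjusted p = 0.00016), and higher again in HFCFD12W+T10W, at 0.54 (SE 0.11, adjusted p = 0.0021) over HFCFD8W+T10D. Slco1b2 and Abcb4 passed in 0 of the 3 control comparisons, with log2 differences between -0.14 and 0.14. Upper quartile scaling turned the balance of all genes that differed between the controls of HFCFD12W+T10W and HFCFD8W+T10D from 818 up and 664 down to 673 and 823.

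Ordered by mean CPM over the 6 groups, Slc10a1 ran from controls of HFCFD2W, which overlapped no other group, through controls of HFCFD8W+T10D, knockout livers of HFCFD2W, controls of HFCFD12W+T10W and knockout livers of HFCFD8W+T10D, each of which overlapped its neighbour, to knockout livers of HFCFD12W+T10W, which lay apart. For Slco1b2 the 3 control groups overlapped each other at the top, knockout livers of HFCFD2W lay apart in the middle, and knockout livers of the tamoxifen experiments overlapped at the bottom. Slco1a1 put both groups of HFCFD2W first, overlapping each other, and knockout livers of HFCFD12W+T10W last, while controls of HFCFD12W+T10W were so wide that they overlapped every group except controls of HFCFD2W. Slco1a4 had its only gap between the 4 groups of the longer diets and the 2 groups of HFCFD2W. Abcc4 put knockout livers of HFCFD12W+T10W first, and each group overlapped the next down to knockout livers of HFCFD2W, with a gap above the controls of HFCFD2W. In Abcb11, Abcb4, Abcc2 and Abcc3 every group overlapped its neighbour in the order.

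Per length, the order in controls of HFCFD2W was Slco1b2 at 441.4, Slc10a1 at 421, Slco1a1 at 213, Abcb11 at 144, Abcc2 at 102, Abcc3 at 72.95, Abcb4 at 63.6, Slco1a4 at 8.04, Slc51b at 0.474 and Abcc4 at 0.294 TPM. In knockout livers of HFCFD12W+T10W it was Slco1b2 at 266, Abcc2 at 164, Abcb11 at 111, Abcb4 at 105, Abcc3 at 97.2, Slc10a1 at 64.1, Slco1a4 at 42.5, Abcc4 at 17.9, Slco1a1 at 9.60 and Slc51b at 0.330 TPM. Slc10a1 thus held rank 2 of the 10 genes in the former group and rank 6 in the latter. These 2 groups differ in genotype, length of diet, tamoxifen and experiment together. In the controls of HFCFD12W+T10W, Slc10a1 also held rank 2, at 304 TPM, while Abcc3 was already at rank 3 and Slco1a1 at rank 7.

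The genes whose pattern was most like that of 3 members were taken over the 30 libraries and 12964 genes, as the Pearson correlation of log2 CPM after subtracting each experiment's mean. For Slc10a1 they were Haao (0.97), Mfsd4b1 (0.96), Aspg (0.95), Hebp1 (0.95) and Abhd14b (0.95). For Abcc4 they were Mpp1 (0.93), Gstm3 (0.92), Tapbp (0.92), Gstm1 (0.90) and Tinag (0.89). For Abcb11 the highest values were lower, Stra6l (0.76), Acat3 (0.72), Abtb1 (0.71), 2310030G06Rik (0.69) and Spata22 (0.68). Between members, Slc10a1 correlated with Slco1b2 at 0.88 and with Abcc3 at 0.83, and Slco1b2 with Abcc4 at -0.87. The libraries behind these values share genotype groups.

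Other uptake carriers of the liver gave a mixed picture. Of 14, 9 were tested, and 2 rose and 2 fell at HFCFD2W, 3 and 1 at HFCFD8W+T10D, then 5 and 3 at HFCFD12W+T10W, with medians of 0.04, 0.22 and 0.46. Slc10a2, the apical sodium-dependent bile acid carrier of ileum and bile ducts, rose from 14.02 to 35.6 CPM in HFCFD2W at 1.34 (SE 0.20, adjusted p = 0.00073), from 41.1 to 80.4 CPM in HFCFD8W+T10D at 0.98 (SE 0.16, adjusted p = 0.0013) and from 44.3 to 73.8 CPM in HFCFD12W+T10W at 0.77 (SE 0.21, adjusted p = 0.0071). Slco2b1, a widely expressed organic anion carrier, fell in each, from 181 to 72.6 CPM in HFCFD12W+T10W at -1.27 (SE 0.10, adjusted p = 7.7e-07). Slco2a1, a prostaglandin carrier, rose in both tamoxifen experiments, by 2.03 (SE 0.20, adjusted p = 4.4e-05) and 1.00 (SE 0.22, adjusted p = 0.0021).

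Among 13 other efflux pumps and partners, of which 10 were tested in HFCFD2W and 12 in the other experiments, 2 rose and 2 fell at HFCFD2W, 1 and 1 at HFCFD8W+T10D, then 2 and 6 at HFCFD12W+T10W, with medians of 0.10, -0.10 and -0.32. The sterol exporters Abcg5 and Abcg8, which act as a heterodimer at the canaliculus, fell together in HFCFD2W, at -0.68 (SE 0.10, adjusted p = 0.00058) and -0.70 (SE 0.10, adjusted p = 0.00054) on the log2 scale. They fell again in HFCFD12W+T10W, at -1.18 (SE 0.20, adjusted p = 0.00038) and -1.22 (SE 0.23, adjusted p = 0.00083). Abcc5, an exporter of cyclic nucleotides, rose in HFCFD8W+T10D from 2.02 to 4.10 CPM and in HFCFD12W+T10W from 2.18 to 7.45 CPM. Abcg2 rose in HFCFD2W from 213 to 318 CPM at 0.58 (SE 0.10, adjusted p = 0.0014). Abcb1b, a multidrug pump, rose in HFCFD2W (log2 1.79) and fell in HFCFD8W+T10D (log2 -1.24) at levels under 5 CPM in each group.

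Of 15 transcriptional regulators of these pathways, 2 rose and 3 fell at HFCFD2W, 1 and 6 at HFCFD8W+T10D, then 1 and 13 at HFCFD12W+T10W, with medians of -0.17, -0.18 and -0.70. In HFCFD2W the oestrogen receptor gene Esr1 rose from 12.3 to 43.8 CPM at 1.83 (SE 0.25, adjusted p = 0.00039), and Cebpb, which encodes another C/EBP factor, rose from 22.1 to 47.7 CPM at 1.11 (SE 0.15, adjusted p = 0.00039). Nr1h4, the bile acid receptor FXR, fell in HFCFD2W from 97.7 to 62.6 CPM at -0.64 (SE 0.11, adjusted p = 0.0019). Nr1i3, the xenobiotic receptor CAR, fell in HFCFD8W+T10D at -1.37 (SE 0.16, adjusted p = 0.00012) and in HFCFD12W+T10W at -1.49 (SE 0.12, adjusted p = 9.2e-07). Hnf4a, a master factor of hepatocyte genes, fell in HFCFD12W+T10W from 713 to 357 CPM at -0.96 (SE 0.08, adjusted p = 2.2e-06). Nfe2l2, the factor that acts through the antioxidant response element, fell in HFCFD2W at -0.61 (SE 0.10, adjusted p = 0.0013). It rose in the tamoxifen experiments at 0.56 (SE 0.15, adjusted p = 0.023) and 0.73 (SE 0.08, adjusted p = 8.7e-06). The mRNAs of Nfe2l2 and Abcc4 moved in opposite directions in HFCFD2W and in the same direction in the other 2. A link between Nfe2l2 and Abcc4 was not tested, and the activity of the Nfe2l2 protein was not measured.

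Of 14 genes of bile acid synthesis and conjugation, 0 rose in any experiment, and 4 fell at HFCFD2W, 7 at HFCFD8W+T10D and 9 at HFCFD12W+T10W, with medians of -0.06, -0.49 and -0.75. Cyp7a1, the rate-limiting enzyme, fell from 371 to 163 CPM in HFCFD2W at -1.18 (SE 0.20, adjusted p = 0.0017) and from 100.5 to 24.3 CPM in HFCFD8W+T10D at -2.03 (SE 0.24, adjusted p = 0.00014). Akr1d1, the steroid reductase of the pathway, fell at -1.60 (SE 0.17, adjusted p = 7.2e-05) in HFCFD2W and -1.56 (SE 0.17, adjusted p = 1.2e-05) in HFCFD12W+T10W. Cyp8b1, which makes cholic acid, fell at -1.61 (SE 0.30, adjusted p = 0.00072) in HFCFD12W+T10W. The largest fall there was that of Cyp7b1, an oxysterol hydroxylase, at -1.78 (SE 0.43, adjusted p = 0.0042). Of 8 genes that anchor or deliver transporters to the membrane, 0 rose and 1 fell at HFCFD2W, 1 and 0 at HFCFD8W+T10D, then 4 and 3 at HFCFD12W+T10W, with medians of 0.09, 0.06 and 0.19. In HFCFD12W+T10W radixin (Rdx), which ties Abcc2 to the actin cortex, fell at -0.51 (SE 0.08, adjusted p = 0.00019), and ezrin (Ezr), abundant in bile duct cells, rose at 1.89 (SE 0.24, adjusted p = 3.1e-05).

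Of all genes tested, 27.4% were higher and 23.8% lower in HFCFD12W+T10W, 10.3% and 6.85% in HFCFD8W+T10D, and 8.6% and 8.09% in HFCFD2W. Beside these shares, markers of other liver cells moved with the knockout, above all in HFCFD12W+T10W, where their summed levels were as follows. All 7 cholangiocyte markers were higher, with sums of 9.39 to 12.8 CPM in controls and 58.6 to 98.2 CPM in knockout livers, Cftr being at the floor of 3 counts or fewer in each of the 3 control groups. All 7 stellate cell markers were higher, with control sums of 115 to 162 CPM and knockout sums of 684 to 920.3 CPM. Of 7 macrophage markers 4 were higher and 1 lower, with sums of 283 to 811 CPM in controls and 905 to 1102 CPM in knockout livers. Hepatocyte markers were lower in 4 of 9 and higher in 0, with a median log2 fold change of -0.055. Their sums were 109997 to 135545 and 72989 to 81171 CPM, and Alb made up much of them, at means of 77545 and 35080 CPM. Of 6 endothelial markers 2 were lower, with sums of 125 to 226 and 145 to 160.4 CPM. Of 3 tested lymphocyte markers 2 were higher, and the sums of all 6 were 11.4 to 22.3 and 33.3 to 49.8 CPM. Most of these sums was Ptprc, at means of 13.9 and 34.6 CPM, which encodes CD45 and is not limited to lymphocytes.

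In HFCFD8W+T10D, 3 of 6 tested cholangiocyte markers, 2 of 7 stellate cell markers, 4 of 7 macrophage markers and 1 of 3 tested lymphocyte markers were higher, while 1 of 6 endothelial and 2 of 9 hepatocyte markers were lower. The cholangiocyte sum there was 13.6 to 20.5 CPM in controls and 21.2 to 27.5 CPM in knockout livers, the stellate cell sum 165 to 302 and 298 to 679.8 CPM, and the macrophage sum 591 to 1099 and 1002 to 1936 CPM. In HFCFD2W the cholangiocyte sum was 11.3 to 15.1 and 10.1 to 15.6 CPM, and 0 of 2 tested cholangiocyte and 0 of 7 stellate cell markers passed. The hepatocyte sum there was 133913 to 166609 and 138042 to 187355 CPM with 1 of 9 markers lower. Of 7 macrophage markers in HFCFD2W, 3 were higher (sums of 209 to 289 and 252 to 396 CPM). The part of other cells in the transporter values of the 3 experiments was not tested.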

How the data were processed

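Liver RNA of 30 male mice in 6 groups was sequenced from stranded poly(A) libraries, 1 per mouse, and the groups were taken from the deposited labels. The submitters' processing notes name Trimmomatic 0.36, STAR 2.5.1, Picard 1.84, RSEM 1.2.22 and DESeq2 with mm10. The authors deposited RSEM expected counts per gene, without normalization, in library files and in a joint table whose values differ from them by 0. RSEM also gave the deposited TPM values, which are relative to the sum over each library. All 55450 gene identifiers are in GENCODE M21. The authors' table of FPKM values and their normalized table were not used.

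Expected counts were rounded to whole numbers. In R 4.3.3 with edgeR 4.0.16, low genes were removed (filterByExpr), libraries were scaled by TMM, and genotypes were compared in each experiment by the two-sided quasi-likelihood F test. Differences of effects and of controls came from 1 fit of all libraries. CPM per mouse come from that joint scaling, and log2 CPM use a prior count of 2. A gene with 3 counts or fewer in every library of a group is at the floor. With 5 mice per group, p-values set a group difference against the spread between these mice, estimated with help from all genes tested. Depth limits low genes such as Slc51b and Abcc4, and counting error is the least error of any count.

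The transporters and gene lists were chosen with earlier results of these data known. Named genes are all 10 transporters, Cebpa, up to 3 higher and 3 lower genes by fold change among those that passed in each other list and experiment, the most abundant marker of a list, and the 5 genes most like Slc10a1, Abcb11 and Abcc4. A gene that this rule names among the other uptake carriers is not reported here. Other genes in the observations, and Slc51a and Cftr, were chosen after their values were seen.

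Alternatives were no low-count filter, DESeq2 1.42.0, upper quartile scaling, the replicate number as a block, limma 3.58.1 on log2(TPM + 1) and log2(TPM + 0.1), a joint fit, a fold over 2, and each mouse left out. The mice were treated as unpaired. Deviations of mice with equal replicate numbers, over 2000 variable genes, correlated at -0.32 to 0.04 in HFCFD2W, -0.07 to 0.16 in HFCFD8W+T10D and -0.04 to 0.22 in HFCFD12W+T10W. These correlations were not tested or set against mice with unequal numbers, so they cannot exclude a pairing. The tests were checked on simulated data.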

Additional observations from a re-analysis of the deposited data

Results flagged for a closer look

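Of 56 groups of 5 mice tested for a mouse apart from the rest, 3 held one whose gap to its nearest neighbour, divided by the range of log2 CPM, exceeded Dixon's critical value of 0.71. Chance flags about 1 in 20 groups. Knockout replicate 2 of HFCFD8W+T10D was low in Slc10a1 (106 CPM, ratio 0.728), control replicate 5 of HFCFD8W+T10D was low in Slco1a1 (158 CPM, ratio 0.865), and knockout replicate 3 of HFCFD12W+T10W was high in Slco1b2 (597 CPM, ratio 0.765).

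The knockout effect differed between experiments in 6 instances, by the interaction test given in the report. For Slc10a1 the log2 difference of effects was -2.0 between HFCFD12W+T10W and HFCFD8W+T10D and -1.80 between HFCFD12W+T10W and HFCFD2W. For Slco1b2 it was -0.76 between HFCFD8W+T10D and HFCFD2W and -0.88 between HFCFD12W+T10W and HFCFD2W. For Slco1a1 and Abcc3 it was -3.13 and -1.07 between HFCFD12W+T10W and HFCFD2W.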

How the results depend on the processing

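The number of transporters that passed between genotypes was 6 for HFCFD2W, 2 for HFCFD8W+T10D and 5 for HFCFD12W+T10W. For HFCFD2W, a block for the replicate number gave 3, the joint fit 3, a fold over 2 gave 1, and leaving out a mouse gave from 3 to 6, 3 being the value without control replicate 5 or knockout replicate 6. In HFCFD8W+T10D it was 4 in the joint fit and from 2 to 6 with a mouse left out, and in HFCFD12W+T10W from 5 to 6. For differences of effects it was 1 between HFCFD8W+T10D and HFCFD2W (0 with a fold over 2, from 1 to 2 with a mouse left out), 1 between HFCFD12W+T10W and HFCFD8W+T10D (2 with upper quartile scaling, through Abcb4, and from 1 to 2), and 4 between HFCFD12W+T10W and HFCFD2W (from 4 to 4). For controls it was 6 between HFCFD8W+T10D and HFCFD2W (2 with a fold over 2, from 6 to 6), 2 between HFCFD12W+T10W and HFCFD8W+T10D (1 with a fold over 2, from 2 to 3) and 6 between HFCFD12W+T10W and HFCFD2W (from 5 to 6). The block gave 2 in HFCFD8W+T10D, 4 in HFCFD12W+T10W, and 1, 1, 4, 6, 2 and 6 in the other 6 contrasts. A fold minimum removes calls by its construction, and the cause of the other shifts was not tested.

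Directions turned for small effects that did not pass. Slco1a4 in HFCFD2W was -0.11 with the block and ran from -0.14 to 0.22 with a mouse left out. Abcb11 in HFCFD8W+T10D ran from -0.040 to 0.19. In HFCFD12W+T10W Abcb11 was 0.029 with upper quartile scaling and 0.30 and 0.31 on the 2 TPM scales, and ran from -0.12 to 0.035 with a mouse left out. Abcb4 there was 0.066 with upper quartile scaling and 0.33 on both TPM scales, and ran from -0.050 to 0.027, and Abcc2 ran from -0.0090 to 0.17. Over the single-gene results, 155 of 189 alternative values kept direction and side of the threshold, 16 lost the call, 11 gained it and 7 turned. With a mouse left out, 244 of 270 kept both, 12 lost the call, 7 gained it and 7 turned.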

Other observations

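Because Slco1a1 varied so widely among the Cebpa fl/fl mice of HFCFD12W+T10W, 4 genes known to differ between male and female mouse liver were read in the same mice, a choice made after the Slco1a1 values were seen. In replicates 1 to 5, where Slco1a1 stood at 295, 157, 59.3, 605 and 1.72 CPM, Cyp7b1, an oxysterol hydroxylase higher in males, was read at 778, 587, 282, 896 and 154 CPM, which puts the 5 mice in the same order. Cyp4a12a, a fatty acid hydroxylase higher in males, was read at 100.3, 23.1, 10.1, 80.01 and 0.505 CPM, with the same 3 mice lowest. Hsd3b5, a steroid dehydrogenase higher in males, was read at 4.40, 0.566, 0.115, 27.9 and 0 CPM. Cyp2b9, higher in females, was read at 139, 287, 339, 174 and 299.7 CPM, lowest in the 2 mice that were highest in Slco1a1. All 5 of these mice are male by the study's methods, and reads of these multigene families can be split among close copies.

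Across genotypes, Cyp4a12a fell in HFCFD8W+T10D (log2 fold change -2.43, SE 0.65, adjusted p = 0.022) and HFCFD12W+T10W (-3.67, SE 0.91, adjusted p = 0.0047). Cyp7b1 fell in the same 2 experiments, at -1.40 (SE 0.36, adjusted p = 0.018) and -1.78 (SE 0.43, adjusted p = 0.0042). Cyp2b9, known to be higher in females, fell as well, at -3.93 (SE 0.53, adjusted p = 0.00043) and -3.03 (SE 0.38, adjusted p = 3.1e-05). In HFCFD2W the male-biased genes did not move together: Hsd3b5 fell (-0.79, SE 0.23, adjusted p = 0.036), while Cyp4a12a stood at -0.12 (SE 0.15, adjusted p = 0.62) and Cyp7b1 at 0.98 (SE 0.38, adjusted p = 0.099).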
